A study of Homo sapiens with 8 samples.

Results

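The genes described here are 40 ribosome biogenesis and RNA polymerase I genes, listed by symbol and taken from the 31402 entries of the deposited expression table. All 40 were found, and none was listed at 0 in any of the 8 libraries. BOP1 stood in 2 entries, and the one with the higher mean was used. The members were grouped by role into 4 subunits of RNA polymerase I, 3 nucleolar scaffold and multifunctional proteins, 3 box C/D and 5 box H/ACA proteins that work with small nucleolar RNAs, 8 proteins of the small subunit processome, 5 later 40S maturation proteins, 3 proteins of the PeBoW complex, 7 other 60S assembly factors and 2 nucleolar regulators.

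RNA was sequenced from KCL-22, a human cell line from chronic myeloid leukemia in blast crisis. All libraries came from 1 pool of cells carrying the ClonTracer barcode library, which tags single cells so that their descendants can be followed. The study compared resistance to imatinib and nilotinib, which block the catalytic site of the BCR-ABL kinase, with resistance to GNF-2, an allosteric inhibitor of the same kinase. The labels do not say that libraries came from separate cultures, so p-values measure only the spread between these samples.

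The GNF-2-resistant group held a population kept for 21 days in GNF-2 at 2.5 µM and Clone 1 and Clone 2, both expanded from single cells of a GNF-2-resistant population. Clone 4 came from such a population too, was resistant to imatinib, nilotinib and GNF-2, and stood alone as a group. According to the labels, Clones 1, 2 and 4 had never met a catalytic inhibitor. The group resistant to catalytic inhibitors held a population kept for 27 days in imatinib at 2.5 µM, a population kept as long in nilotinib at 0.3 µM, and Clone 3, which was expanded from an imatinib-resistant population and had never met an allosteric inhibitor. The labels give Clone 3 as resistant to imatinib at 2.5 µM and nilotinib at 0.3 µM. They give Clones 1 and 2 as resistant to GNF-2 at 2.5 µM, and Clone 4 as resistant to all of these drugs at these doses. The vehicle population received 0.1% DMSO for 7 days and was a single library. Each clone descends from 1 cell, so a clone also carries whatever set that cell apart.

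Ribosome biogenesis starts in the nucleolus, where RNA polymerase I transcribes the long precursor of the ribosomal RNAs. Small nucleolar ribonucleoproteins modify the precursor, and large assemblies cleave and fold it into the 40S and 60S subunits. The transcription factor MYC, which acts as a dimer with MAX at E-box sequences, is a known activator of many of these genes, and its level is controlled by BCR-ABL signaling in chronic myeloid leukemia.

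Values are FPKM, fragments scaled per kilobase of transcript and by library size, a level scaled for transcript length. The libraries were estimated to hold 19700000 to 39000000 fragments, so that a transcript of 2 kb at an FPKM of 2 rested on 79 to 156 fragments. Between 6.91% and 10.4% of the FPKM sum of a library came from its top 10 genes. Of the markers listed for a myeloid blast line, PTPRC, ANPEP, BCR and ABL1 were at 14.6 FPKM or more in every library. KIT was at most 0.00524 and MPO at most 0.403 FPKM. CD33 was at 0.157 to 3.35 FPKM and CD34 at 0.378 to 12.2 FPKM. SPI1, a myeloid transcription factor, was listed at 0 in Clones 3 and 4. The summed level of all 9 markers of this list was 199 to 284 FPKM in the clones and 276 to 342 FPKM in the resistant populations. In vehicle it was 373 FPKM. The sum includes BCR at 58.8 to 105.7 FPKM and ABL1 at 65.3 to 110.5 FPKM, so it does not follow the other markers alone. The summed level of 12 markers of other cells was 0.881 to 12.6 FPKM in the resistant libraries and 33.5 FPKM in vehicle, where CD3D, a T cell gene, made up 32.0 FPKM. CD3E, its partner in the T cell receptor complex, stayed at or below 0.297 FPKM, and KRT5 and MS4A1 were 0 in every library. The part of these marker differences in the results was not tested. In bulk RNA, fewer cells of a type and less RNA per cell cannot be told apart.

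Promoter sequences were read because the E-box is the sequence MYC and MAX bind. RefSeq promoters on GRCh38.p14, each 250 bases before to 50 bases after a start site, were matched to 32 of the 40 members, with 38 promoters in all. The entries for POLR1E, NOP58, NOLC1, RRP12, BOP1, RRP1B, RRS1 and URB2 were not used here. The letters CACGTG, which read the same on both strands, were found in 15 of the 38 member promoters (39.5%), 1 for each of 15 genes. The same letters were in 7.26% of all 35116 promoters and in 9.67% of the 13405 promoters of the genes tested below. The 60-base windows that follow lie wholly upstream of the start site and hold an E-box, in capitals. They read 5′ to 3′ on the strand of the gene.
LYAR (chr4:4290053-4290112, minus strand): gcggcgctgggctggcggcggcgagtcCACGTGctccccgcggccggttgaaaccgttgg
DDX21 (chr10:68956587-68956646, plus strand): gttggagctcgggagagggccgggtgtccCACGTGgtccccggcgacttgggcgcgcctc
NAT10 (chr11:34105569-34105628, plus strand): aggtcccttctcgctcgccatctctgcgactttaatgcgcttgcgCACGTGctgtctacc
UTP20 (chr12:101280045-101280104, plus strand): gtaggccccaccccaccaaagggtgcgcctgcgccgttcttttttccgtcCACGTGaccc
NOP10 (chr15:34343274-34343333, minus strand): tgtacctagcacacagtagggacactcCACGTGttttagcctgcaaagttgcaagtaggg
NOP10 (chr15:34343137-34343196, minus strand): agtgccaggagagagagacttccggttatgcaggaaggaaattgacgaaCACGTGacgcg

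NOP10, whose level varied least of all 40 members, has 2 E-boxes in its promoter, and both are shown. LYAR has 1, and its level spanned 2.83-fold. The core letters of the ETS factors, CCGGAAG, were in 31.6% of the member promoters, against 18.0% of those of the genes tested. GCGCATGCG, the core of the NRF1 motif, was in 10.5% of the member promoters, against 3.34%. Both strands were searched and overlaps between motifs were kept, and a match describes the letters only.

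The median member was higher in every resistant library than in vehicle, by a little in the catalytic-inhibitor populations and by more in the others. The median difference of the 40 members from vehicle, on the log2(FPKM + 1) scale, was 0.77 in the GNF-2 population, 0.83 in Clone 1, 0.79 in Clone 2, 0.88 in Clone 4, 0.81 in Clone 3, 0.30 in the nilotinib population and 0.19 in the imatinib population. The median of all 11843 genes tested, those with a mean FPKM of at least 1, was between -0.04 and 0.12 in the same comparisons. Vehicle was the lowest of the 8 libraries for 28 of the 40 members (70.0%), against 19.8% of all genes tested. Because vehicle was 1 library treated for fewer days than the resistant populations, its own deviation and the effect of resistance cannot be told apart.

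Counts by fold took only genes with at least 5 FPKM in the higher of the 2 libraries, which left out UTP20 in most comparisons. Against vehicle, the floor also left out URB2, RRP12 and MYBBP1A in the imatinib population and RRP12 in the nilotinib population. By this count, 26 members were at least 1.5-fold higher in the GNF-2 population than in vehicle (background 13.7% of genes tested). The counts were 29 in Clone 1 (background 14.7%), 26 in Clone 2 (16.5%), 27 in Clone 4 (19.2%) and 26 in Clone 3 (12.3%). The nilotinib population had 11 such members (8.15%), and the imatinib population had 1 (3.39%). With no such floor, the imatinib population had 2 members past 1.5-fold, RRS1 and URB2, and 7.3% of genes tested. No member was at least 1.5-fold lower than vehicle in any of the 7 libraries, where the share of genes tested was 7.56% in the GNF-2 population, 18.3% in Clone 1, 15.4% in Clone 2, 18.7% in Clone 4, 17.0% in Clone 3, 5.14% in the nilotinib population and 4.33% in the imatinib population. These are counts from single libraries and carry no test.

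**Figure D1:**
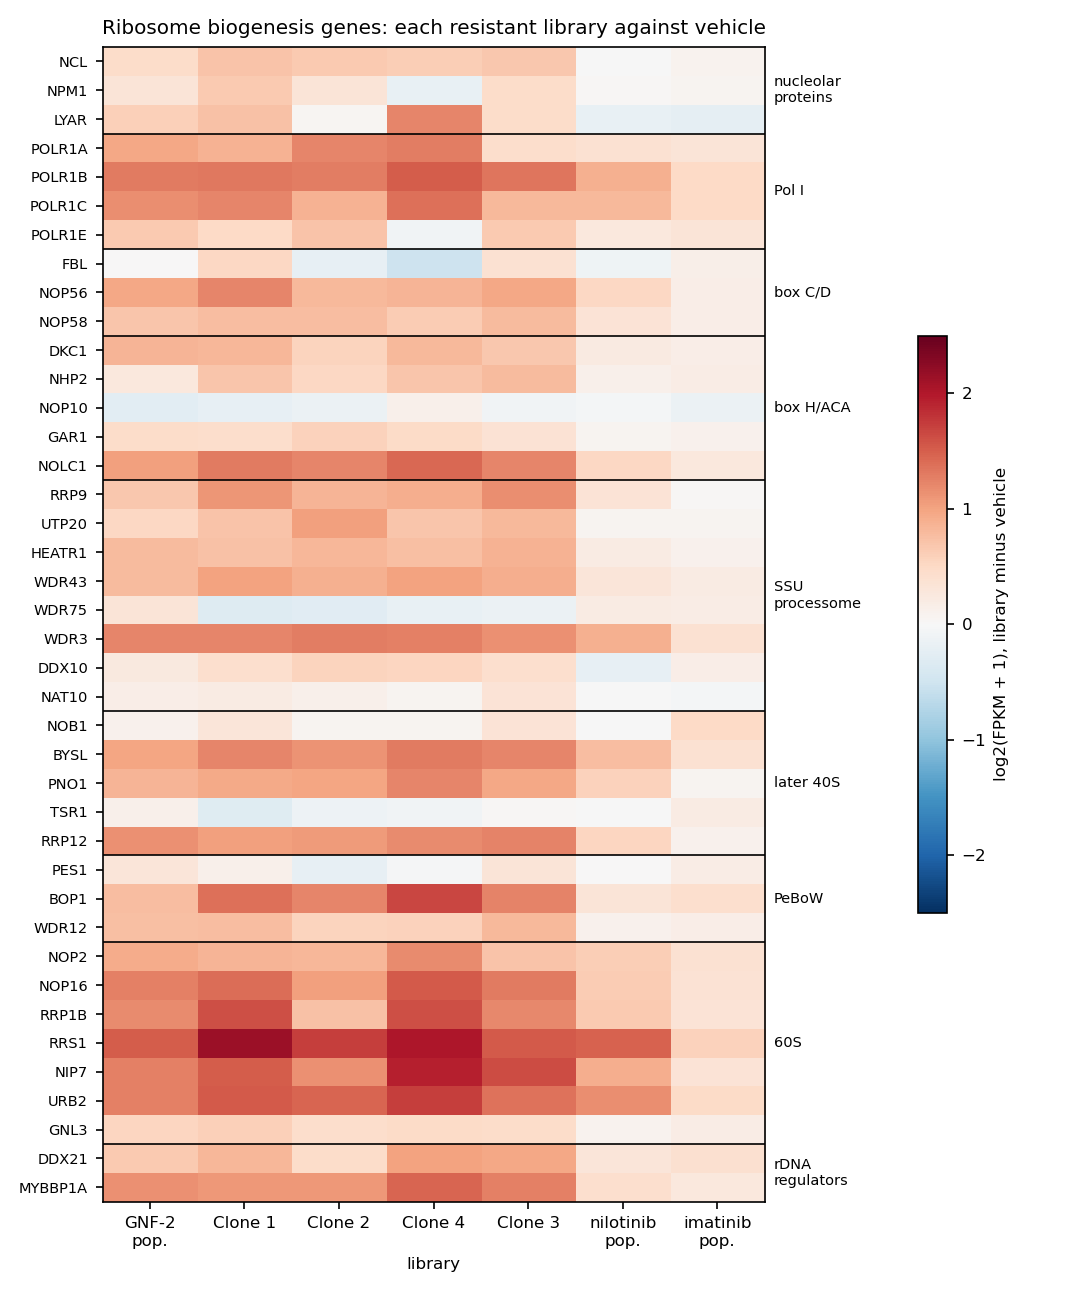
Heat map of the difference in log2(FPKM + 1) between each of the 7 resistant libraries and the vehicle library for the 40 members, with rows grouped by role. Red is higher and blue lower than vehicle, and the 60S assembly rows had medians over that role of 1.02 to 1.62 in the GNF-2 population and the 4 clones.

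Among the 4 populations, 23 members ran in the order vehicle, imatinib, nilotinib, GNF-2 from low to high, against 15.8% of genes tested. Vehicle was lowest and the GNF-2 population highest for 32 members, against 23.7% of genes tested. The GNF-2 population had 21 members at least 1.5-fold above the imatinib population (background 9.06%) and 8 above the nilotinib population (4.0%), with none that far below either. The nilotinib population had 3 members at least 1.5-fold above the imatinib population (5.84%).

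The 4 RNA polymerase I subunits among the members were higher in all GNF-2-resistant libraries than in vehicle. POLR1A encodes the largest catalytic subunit and lies at chr2:86253451-86333278 on GRCh37. Its level was 13.5 FPKM in the GNF-2 population, 12.6 FPKM in Clone 1 and 16.2 FPKM in Clone 2, 17.1 FPKM in Clone 4, 8.30 FPKM in the imatinib population, 8.64 FPKM in the nilotinib population and 8.997 FPKM in Clone 3, and 6.42 FPKM in vehicle. Every GNF-2-resistant library thus lay above every library resistant to catalytic inhibitors, and all 7 lay above vehicle.

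POLR1B, the other large catalytic subunit, lies at chr2:113299492-113334727. It was at 18.8, 19.0 and 18.4 FPKM in the GNF-2 population, Clone 1 and Clone 2, at 21.9 FPKM in Clone 4, at 10.3, 14.0 and 19.2 FPKM in the imatinib population, the nilotinib population and Clone 3, and at 7.05 FPKM in vehicle. Clone 3 was thus at the level of the GNF-2-resistant libraries for this subunit, though not for POLR1A. POLR1C, a subunit shared with RNA polymerase III, lies at chr6:43484777-43497114. It was at 36.7, 38.5 and 29.8 FPKM in the GNF-2 population, Clone 1 and Clone 2, at 43.0 FPKM in Clone 4, at 22.7, 28.7 and 28.7 FPKM in the imatinib population, the nilotinib population and Clone 3, and at 15.9 FPKM in vehicle.

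POLR1E, an accessory subunit that acts at initiation, lies at chr9:37485945-37503693 and had another pattern. It was at 21.3, 19.0 and 22.2 FPKM in the GNF-2 population, Clone 1 and Clone 2, at 12.4 FPKM in Clone 4, at 16.7, 16.1 and 21.2 FPKM in the imatinib population, the nilotinib population and Clone 3, and at 13.1 FPKM in vehicle. Clone 4, the highest library for the other 3 subunits, was the lowest for this one.

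**Figure D2:**
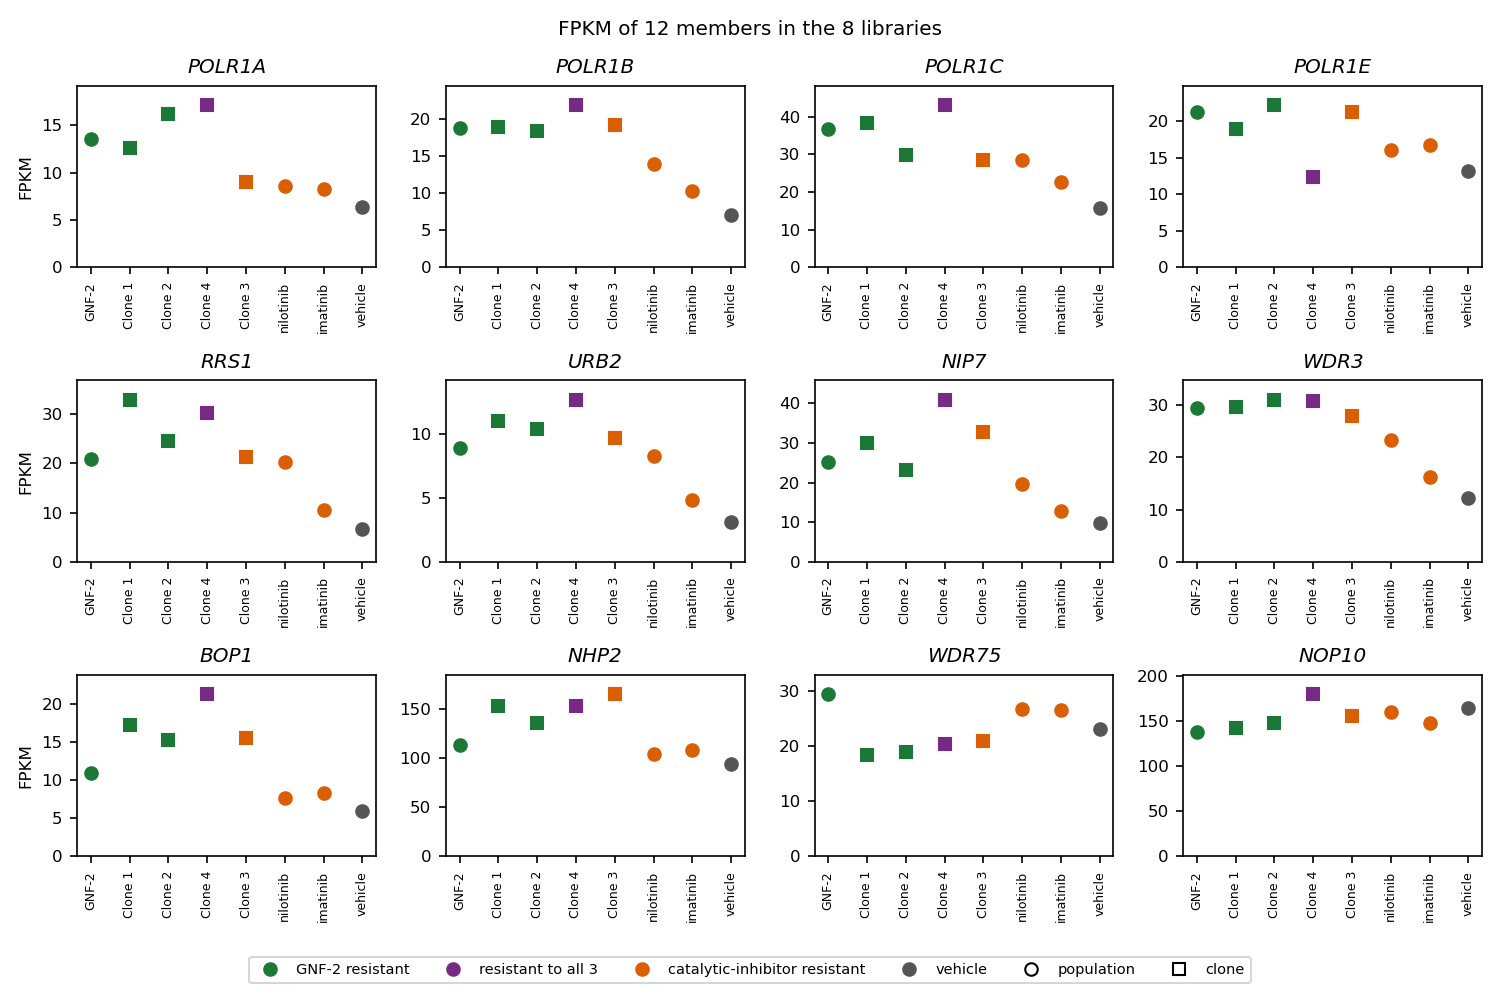
FPKM of 12 members in each library, one panel per gene with its own axis from 0, with circles for populations, squares for clones and colors for resistance groups. RRS1 ran up to 32.8 FPKM in Clone 1, against 6.66 FPKM in vehicle, whereas NOP10 stayed between 138 and 180.0 FPKM.

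The nucleolar proteins NCL, NPM1 and LYAR had fitted log2 differences of 0.43 to 0.61 in GNF-2-resistant libraries against vehicle, where the 4 polymerase subunits had 0.62 to 1.29. NCL encodes nucleolin, a chaperone of ribosomal RNA precursors. It was at 255, 305 and 291 FPKM in the GNF-2 population, Clone 1 and Clone 2, at 282 FPKM in Clone 4, at 196, 184 and 296 FPKM in the imatinib population, the nilotinib population and Clone 3, and at 185 FPKM in vehicle. The GNF-2 population and the 4 clones were high, and both catalytic-inhibitor populations were near vehicle.

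NPM1, nucleophosmin, was the most abundant member. It was at 869, 1091 and 869 FPKM in the GNF-2 population, Clone 1 and Clone 2, at 612 FPKM in Clone 4, at 728, 706 and 957 FPKM in the imatinib population, the nilotinib population and Clone 3, and at 696 FPKM in vehicle. Clone 4 was the lowest library, below vehicle. NPM1 has many processed pseudogenes, so how its fragments were assigned is uncertain. LYAR, a nucleolar zinc finger protein, ranged between 15.2 FPKM in the imatinib population and 42.9 FPKM in Clone 4, with 18.0 FPKM in vehicle.

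Proteins of the small nucleolar ribonucleoproteins differed among themselves. FBL encodes fibrillarin, the methyltransferase of the box C/D particles. It was at 183, 259 and 157 FPKM in the GNF-2 population, Clone 1 and Clone 2, at 126 FPKM in Clone 4, at 200.4, 168 and 236 FPKM in the imatinib population, the nilotinib population and Clone 3, and at 181 FPKM in vehicle. Its resistant libraries lay on both sides of vehicle, with Clone 4 the lowest. Its box C/D partner NOP56 reached 77.9 FPKM in Clone 1, against 32.9 FPKM in vehicle, and NOP58 reached 53.7 FPKM in Clone 3, against 30.5 FPKM in vehicle. Vehicle was the lowest library for both.

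In the box H/ACA group, DKC1, the pseudouridine synthase dyskerin, was at 52.2 to 64.3 FPKM in the GNF-2 population and the 4 clones, at 39.5 and 41.7 FPKM in the imatinib and nilotinib populations, and at 35.3 FPKM in vehicle. NOLC1, a chaperone of these particles, was at 31.2 to 41.6 FPKM in the GNF-2 population and the clones, at 17.9 and 21.6 FPKM in the imatinib and nilotinib populations, and at 14.8 FPKM in vehicle. NOP10, a small core protein, was the least variable member. It was at 138, 142 and 148 FPKM in the GNF-2 population, Clone 1 and Clone 2, at 180.0 FPKM in Clone 4, at 149, 160 and 156 FPKM in the imatinib population, the nilotinib population and Clone 3, and at 165 FPKM in vehicle. NHP2 and GAR1, the other core proteins, were lowest in vehicle like DKC1, at 94.4 and 21.0 FPKM. Of the box H/ACA core proteins, NOP10 alone thus had another pattern. Small nucleolar RNAs are often encoded in introns of such genes, and 17 of their entries lie inside 7 members (NCL, NOP56, NOP58, DKC1, WDR43, TSR1 and GNL3). No source used here states whether their fragments entered the values of the host genes.

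Small subunit processome members had median differences from vehicle of 0.60 in the GNF-2 population, 0.73 in Clone 1, 0.85 in Clone 2, 0.72 in Clone 4, 0.84 in Clone 3, 0.20 in the nilotinib population and 0.14 in the imatinib population. WDR3, a WD repeat protein of this assembly, was at 29.5, 29.6 and 30.9 FPKM in the GNF-2 population, Clone 1 and Clone 2, at 30.7 FPKM in Clone 4, at 16.2, 23.3 and 27.9 FPKM in the imatinib population, the nilotinib population and Clone 3, and at 12.1 FPKM in vehicle. NAT10, an acetyltransferase of ribosomal RNA, varied little, between 36.4 and 48.1 FPKM.

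Of the later 40S maturation factors, BYSL, PNO1 and RRP12 were lowest in vehicle. BYSL, bystin, was at 27.9, 32.8 and 30.9 FPKM in the GNF-2 population, Clone 1 and Clone 2, at 34.8 FPKM in Clone 4, at 18.0, 23.7 and 32.9 FPKM in the imatinib population, the nilotinib population and Clone 3, and at 13.6 FPKM in vehicle. TSR1 and NOB1, the endonuclease that makes the last cut of 18S ribosomal RNA, did not follow. TSR1 was between 9.95 FPKM in Clone 1 and 14.6 FPKM in the imatinib population, and NOB1 was between 53.1 FPKM in the nilotinib population and 75.7 FPKM in the imatinib population.

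The 60S assembly factors held the members with the widest spread. RRS1, which helps to bring the 5S particle into the precursor, was at 20.8, 32.8 and 24.5 FPKM in the GNF-2 population, Clone 1 and Clone 2, at 30.3 FPKM in Clone 4, at 10.4, 20.2 and 21.3 FPKM in the imatinib population, the nilotinib population and Clone 3, and at 6.66 FPKM in vehicle. URB2 was at 8.92, 11.0 and 10.4 FPKM in the GNF-2 population, Clone 1 and Clone 2, at 12.7 FPKM in Clone 4, at 4.81, 8.29 and 9.69 FPKM in the imatinib population, the nilotinib population and Clone 3, and at 3.15 FPKM in vehicle. In both genes the imatinib population was the resistant library nearest to vehicle.

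NIP7 was at 25.3, 30.0 and 23.1 FPKM in the GNF-2 population, Clone 1 and Clone 2, at 40.8 FPKM in Clone 4, at 12.8, 19.6 and 32.8 FPKM in the imatinib population, the nilotinib population and Clone 3, and at 9.92 FPKM in vehicle. NOP16 was at 40.7, 44.4 and 34.2 FPKM in the GNF-2 population, Clone 1 and Clone 2, at 49.5 FPKM in Clone 4, at 21.4, 26.0 and 41.9 FPKM in the imatinib population, the nilotinib population and Clone 3, and at 16.3 FPKM in vehicle. GNL3, nucleostemin, had a narrower range, with 74.2 FPKM in Clone 1, its highest library, and 48.5 FPKM in vehicle, its lowest. MYBBP1A, a nucleolar regulator of transcription, was at 9.06 to 12.01 FPKM in the GNF-2 population and the clones, at 4.74 and 5.37 FPKM in the imatinib and nilotinib populations, and at 3.75 FPKM in vehicle.

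Against the libraries resistant to catalytic inhibitors (n = 3), the GNF-2-resistant libraries (n = 3) had higher fitted values for 34 of the 40 members, against 51.8% of genes tested. The median member difference was 0.36 on the log2(FPKM + 1) scale, against 0.01 over all genes. No member passed limma at a Benjamini-Hochberg adjusted p of 0.05 over all genes, and the smallest adjusted p was 0.846. Over all genes limma called 2 higher and 2 lower (0.0169% each), and 1 member, POLR1A, was higher at an unadjusted p under 0.05 (2.55% of genes tested), with none lower (2.32%). POLR1A averaged 14.1 FPKM in GNF-2-resistant libraries and 8.64 FPKM in libraries resistant to catalytic inhibitors, a log2 difference of 0.64 (SE 0.15). The 2 groups did not overlap for 5 members with higher values under GNF-2 resistance, POLR1A, POLR1C, WDR3, GAR1 and NOP2 (12.5%, against 6.82% of genes tested), and for NOP10 with lower values (4.08% of genes tested). GAR1, a box H/ACA core protein, averaged 30.1 FPKM in GNF-2-resistant libraries and 24.0 FPKM in libraries resistant to catalytic inhibitors. NOP2, a methyltransferase of 60S precursors, averaged 29.3 FPKM in GNF-2-resistant libraries and 23.7 FPKM in libraries resistant to catalytic inhibitors. The median member difference was 0.57 without Clone 3 and 0.22 without the imatinib population. More of the GNF-2-resistant libraries were clones. With clone as a covariate the median member difference was 0.245, against 0.05 over all genes.

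Set against the vehicle library, the GNF-2-resistant libraries had higher fitted values for 37 members (52.9% of genes tested), with a median difference of 0.77, against 0.04 over all genes. None passed limma, where the smallest adjusted p was 0.42, although 24 members had an unadjusted p under 0.05 (background 6.64% of genes tested) and none in the other direction (4.47%). Limma called 0.0507% of genes higher and 0.0422% lower. The 6 largest differences among members without overlap were those of RRS1 (log2 difference 1.80, SE 0.43), URB2 (1.41, SE 0.36), NIP7 (1.31, SE 0.46), POLR1B (1.29, SE 0.32), WDR3 (1.24, SE 0.30) and NOP16 (1.23, SE 0.37). All 3 GNF-2-resistant libraries lay above vehicle for 35 members (87.5%, against 33.8% of genes tested), and all lay below it for NOP10 (26.2%).

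For the libraries resistant to catalytic inhibitors, set against the same vehicle library, 39 members had higher fitted values (53.1% of genes tested), with a median difference of 0.42, against 0.02 over all genes. No member passed limma, with an adjusted p of 1 throughout, and 7 had a higher level at an unadjusted p under 0.05 (17.5%, against 1.39% of genes tested), with none lower (1.3%). Limma called 0.0253% of genes higher and 0.00844% lower. The 6 largest differences without overlap were those of RRS1 (1.20, SE 0.43), URB2 (1.00, SE 0.36), NIP7 (0.96, SE 0.46), POLR1B (0.91, SE 0.32), WDR3 (0.80, SE 0.30) and BYSL (0.79, SE 0.32). All 3 libraries lay above vehicle for 31 members (77.5%, against 28.8%) and below it for NOP10 (21.2%). The median was 0.25 without Clone 3, and since both comparisons use the 1 vehicle library, their values are not independent.

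The 4 clones differed from the 3 resistant populations in 3 members by limma, and these calls rest on few libraries. BOP1, a scaffold of the PeBoW complex that is needed for 60S maturation, rose to a mean of 17.3 FPKM in the clones, against 8.97 FPKM in the resistant populations. Its levels were 17.2, 15.3, 15.5 and 21.2 FPKM in Clones 1, 2, 3 and 4, 10.9, 7.69 and 8.30 FPKM in the GNF-2, nilotinib and imatinib populations, and 5.97 FPKM in vehicle. The log2 difference was 0.88 (SE 0.17), with a limma adjusted p of 0.0284. Every clone lay above every population. BOP1 has a second entry under the same symbol, at 0.376 to 0.976 FPKM, so the split of fragments between the 2 is uncertain.

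NHP2, a box H/ACA core protein at chr5:177576465-177580961, rose to a mean of 151.5 FPKM in the clones, against 108 FPKM in the resistant populations. Its levels were 153.2, 135, 165 and 152.8 FPKM in Clones 1, 2, 3 and 4, 113, 104 and 108 FPKM in the GNF-2, nilotinib and imatinib populations, and 94.4 FPKM in vehicle. The log2 difference was 0.48 (SE 0.11), with a limma adjusted p of 0.0418. WDR75, a processome protein at chr2:190306159-190340264, went the other way and fell to a mean of 19.6 FPKM in the clones, against 27.5 FPKM in the resistant populations. Its levels were 18.4, 18.9, 20.9 and 20.3 FPKM in Clones 1, 2, 3 and 4, 29.3, 26.7 and 26.4 FPKM in the GNF-2, nilotinib and imatinib populations, and 23.1 FPKM in vehicle. The log2 difference was -0.47 (SE 0.11), with a limma adjusted p of 0.0420. Neither gene's clones overlapped with the resistant populations.

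These 2 higher calls (5.0% of members) and 1 lower call (2.5%) compare with 1.68% of genes tested called higher and 5.78% called lower. All 3 calls were lost without Clone 1, without the imatinib population or without the nilotinib population, where the limma adjusted p of BOP1 was 0.0812, 0.114 and 0.126. Leaving out any single resistant library lost the call of WDR75, and leaving out any but Clone 2 lost that of NHP2. Both were lost without the variance trend (limma adjusted p 0.0535 for WDR75 and 0.0560 for NHP2). The call of WDR75 was also lost after rescaling by median ratios (limma adjusted p 0.0690) and after quantile normalization (0.0642). That of NHP2 was lost after quantile normalization (limma adjusted p 0.0519). With the population of origin as a block, an alternative chosen after seeing the data, no member passed limma, and the adjusted p of BOP1 was 0.196, of NHP2 0.241 and of WDR75 0.227. With the resistance group as a covariate no member passed limma, and the adjusted p of BOP1 was 0.0833, of NHP2 0.123 and of WDR75 0.121. Calls included, 18 members had an unadjusted p under 0.05 in the higher direction (background 8.55%) and 1 in the lower (18.5%). The median member difference was 0.41, against -0.08 over all genes, and 37 members had higher fitted values (42.3% of genes tested). Most clones came from GNF-2-resistant populations, while most of the resistant populations were kept in catalytic inhibitors. The median was 0.31 with resistance group as a covariate and 0.30 with population of origin as a block, against -0.09 over all genes in both. The clones lay wholly above the resistant populations for 12 members (30.0%, against 8.17%) and wholly below them for WDR75 (18.1%). Among members without overlap, the next after BOP1 by size were NOLC1 (0.69, SE 0.18), RRS1 (0.68, SE 0.26), RRP9, a U3 particle protein (0.66, SE 0.17), UTP20 (0.59, SE 0.19) and URB2 (0.55, SE 0.21), with limma adjusted p of 0.0626, 0.150, 0.0612, 0.0933 and 0.146. RRP9 was at 17.3 to 21.6 FPKM in the clones, at 9.33 to 15.1 FPKM in the resistant populations and at 9.11 FPKM in vehicle. UTP20 was at 3.82 to 5.09 FPKM in the clones, at 2.14 to 3.32 FPKM in the resistant populations and at 2.00 FPKM in vehicle.

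Each clone was also set beside the population treated with the same drug. Clone 3 had 22 members at least 1.5-fold above the imatinib population and none that far below, against 9.96% of genes tested above and 16.6% below. Among the 22 were NIP7 (2.56-fold), RRS1 (2.04-fold) and URB2 (2.01-fold). The median member difference was 0.64 in Clone 3, against -0.08 over all genes. It was 0.12 in Clone 1, -0.02 in Clone 2 and 0.21 in Clone 4 over the GNF-2 population. All genes had medians of -0.13, -0.07 and -0.08 there. Against the GNF-2 population, Clone 1 had 2 members at least 1.5-fold above and 1 below, Clone 2 had 1 above and 2 below, and Clone 4 had 3 above and 1 below. The background shares for Clones 1, 2 and 4 were 6.0%, 8.86% and 9.62% above and 16.7%, 14.0% and 16.0% below, so their counts were near or under the background. Limma also compared 2 differences, Clones 1 and 2 minus the GNF-2 population and Clone 3 minus the mean of the imatinib and nilotinib populations. Clone 4 had its own mean and did not enter this comparison, in which the GNF-2 population and Clone 3 were single libraries. Limma called none of the 40 members and 0 of 11843 genes, with 3 members and 637 genes at an unadjusted p under 0.05.

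**Figure D3:**
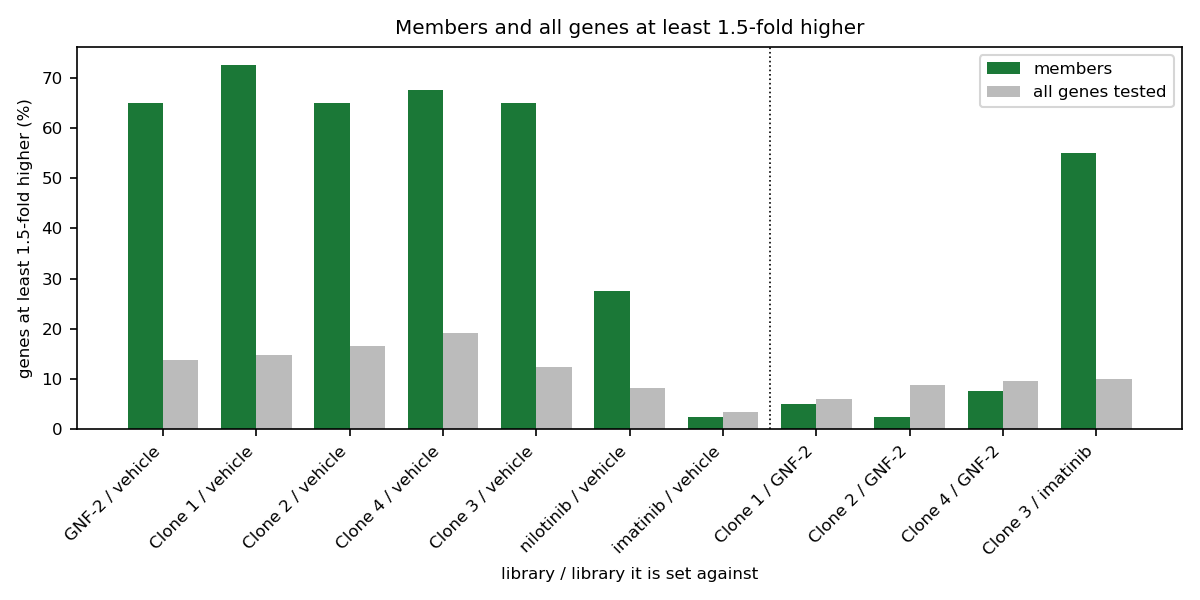
Share in percent of the 40 members (green) and of all 11843 genes tested (grey) that were at least 1.5-fold higher, for each resistant library over vehicle (left of the dotted line) and each clone over the population treated with the same drug (right). The members reached 65.0% to 72.5% in the GNF-2 population and the 4 clones over vehicle, and 55.0% in Clone 3 over the imatinib population.

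Of a wider list of 110 other ribosome biogenesis genes, 108 were found and all but 1 of these were tested. Its median was 0.38 in GNF-2-resistant libraries against vehicle and 0.26 in libraries resistant to catalytic inhibitors against vehicle. It was 0.07 in GNF-2-resistant libraries against libraries resistant to catalytic inhibitors, where the 40 members had 0.36, and 0.10 in clones against resistant populations, where they had 0.41. Limma called none of these genes in either group against vehicle or between the 2 groups. In clones against resistant populations limma called 2 higher and none lower, beside 1.68% and 5.78% of all genes tested. EXOSC4, a subunit of the RNA exosome, averaged 37.3 FPKM in the clones and 16.4 FPKM in the resistant populations (log2 difference 1.14, SE 0.24, limma adjusted p 0.0344). IMP3, a protein of the U3 particle, averaged 67.5 FPKM in the clones and 49.4 FPKM in the resistant populations (0.44, SE 0.10, limma adjusted p 0.0372). The list holds 4 further subunits of RNA polymerase I, and these did not share a pattern. CD3EAP averaged 9.59 FPKM in GNF-2-resistant libraries and 6.95 FPKM in libraries resistant to catalytic inhibitors, and was listed at 0 in vehicle. TWISTNB averaged 24.9 FPKM in GNF-2-resistant libraries, 20.04 FPKM in libraries resistant to catalytic inhibitors and 13.7 FPKM in vehicle. POLR1D averaged 152 FPKM in GNF-2-resistant libraries, 148 FPKM in libraries resistant to catalytic inhibitors and 138 FPKM in vehicle. ZNRD1 averaged 74.1 FPKM in GNF-2-resistant libraries, 78.7 FPKM in libraries resistant to catalytic inhibitors and 81.6 FPKM in vehicle.

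Ribosomal proteins and proliferation genes had other patterns across the libraries. The 20 cytosolic ribosomal proteins had medians against vehicle of 0.24 in the GNF-2 population, 0.88 in Clone 1, 0.15 in Clone 2, -0.13 in Clone 4, 0.60 in Clone 3, 0.27 in the nilotinib population and 0.20 in the imatinib population, and limma called none of them in any contrast. Clone 4 thus had the highest median of the 40 members and the lowest of the cytosolic ribosomal proteins. The 20 mitochondrial ribosomal proteins had medians of 0.03 to 0.31, with none called by limma. The 20 proliferation genes had medians below vehicle in every resistant library, between -1.22 in Clone 4 and -0.28 in the imatinib population, and limma called TOP2A, which averaged 59.2 FPKM in the clones and 103 FPKM in the resistant populations (limma adjusted p 0.0444). Of 8 histone genes, 5 were tested, and their medians were above vehicle in every resistant library, between 0.24 in Clone 3 and 1.75 in Clone 4. Limma called HIST1H1C, which averaged 14.8 FPKM in the clones and 24.6 FPKM in the resistant populations (limma adjusted p 0.0341).

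**Figure D4:**
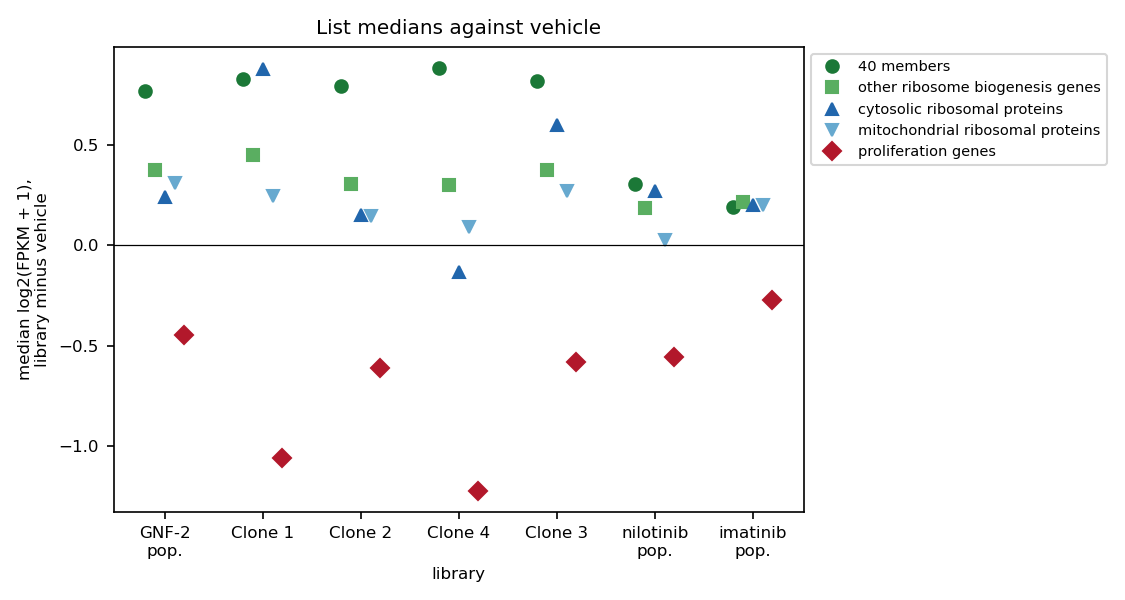
Median difference in log2(FPKM + 1) from the vehicle library for the 40 members and 4 other gene lists in each of the 7 resistant libraries. The members (circles) lay at 0.19 to 0.88, while the proliferation genes (diamonds) lay below 0 in all 7 libraries.

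MYC, the transcription factor named above, was at 343, 283 and 182 FPKM in the GNF-2 population, Clone 1 and Clone 2, at 254 FPKM in Clone 4, at 193, 269 and 261 FPKM in the imatinib population, the nilotinib population and Clone 3, and at 127 FPKM in vehicle. All 7 resistant libraries were above vehicle. Limma called none of the 8 genes of the MYC network tested, in any contrast. Their median difference from vehicle was 0.31 in GNF-2-resistant libraries and 0.19 in libraries resistant to catalytic inhibitors. In each of these contrasts 5 of the 8 genes had higher fitted values, against 52.9% and 53.1% of genes tested. MAX was highest in Clone 4, at 56.8 FPKM, and lowest in vehicle, at 35.8 FPKM. MXI1, which competes with MYC for MAX, averaged 30.6 FPKM in GNF-2-resistant libraries, 57.3 FPKM in libraries resistant to catalytic inhibitors and 109 FPKM in vehicle. MXD1, another such competitor, averaged 7.66 FPKM in GNF-2-resistant libraries, 13.1 FPKM in libraries resistant to catalytic inhibitors and 23.7 FPKM in vehicle. MXI1 and MXD1, both lower than vehicle in these means, were named after their values were seen and do not stand for the list.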

How the data were processed

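Gene expression was measured by RNA sequencing in 8 KCL-22 libraries. The values deposited by the authors are FPKM, 1 per gene and library, made with TopHat 1.3, Cufflinks 1.3 and GRCh37, per the submitters' processing notes. The table's header does not name the unit. It was taken from the tool and the values. Positions are GRCh37, counted from 1.

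Of 31402 entries, 70 with a missing value were dropped, and 11843 with a mean FPKM of at least 1 were tested. No read counts were used here, and depth was estimated roughly from the smallest FPKM step of 633 intronless genes of 1000 to 8000 bases (GENCODE annotation). For log2(FPKM + 1) values, limma 3.58.1 under R 4.3.3 (lmFit, eBayes with a trend) fitted 1 mean per resistance group over all 8 libraries, or 1 per kind (vehicle, resistant population, clone). Tests were two-sided, with Benjamini-Hochberg adjustment over all genes tested. A log2 difference with this pseudocount understates the change of low genes. Vehicle and Clone 4 have no replicate and are assumed to vary like the others. Single libraries were compared by ratios of at least 1.5 with at least 5 FPKM in the higher library, with no test. The limma code was tested on simulated data. Python 3.11.15, numpy 2.4.6, pandas 2.3.3 and matplotlib 3.10.9 made the tables and figures.

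The members and lists were chosen with earlier results of these data known. Named were the 4 polymerase subunits, NCL, NPM1 and FBL, called members, the 6 largest differences each way without overlap in each contrast, and the 3 least variable members. Other members were given by range as examples of their role, chosen after their values were seen. Alternatives were other pseudocounts, filters, scalings and variance models, a covariate, a 2-fold limit and leaving out each library.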

Additional observations from a re-analysis of the deposited data

Results flagged for a closer look

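PNO1, a 40S maturation factor, was at 20.8 FPKM in Clone 4, apart from the other 3 clones at 17.1 to 17.3 FPKM. Among 40 members it was the only one whose highest or lowest clone passed a limit that chance passes in about 1 in 20 groups of samples. A single member of 40 is not above that rate, and the share of all genes was not counted.

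In DKC1 and PES1 the clones from the GNF-2-resistant population all lay below the GNF-2 population, while Clone 3 lay above the imatinib population. For DKC1 the gaps were small in Clones 1 and 4, at 0.984 and 0.975 of the GNF-2 population, and larger in Clone 2, at 0.812. How many of all genes have this pattern was not counted. Limma did not test this pattern itself. It compared Clones 1 and 2 minus the GNF-2 population with Clone 3 minus the mean of the imatinib and nilotinib populations. That difference was -0.65 (log2) for DKC1 and -0.58 for PES1, and limma called neither gene. The GNF-2 population and Clone 3 were single libraries in that comparison.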

How the results depend on the processing

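No median member difference, and no difference of a member named for its size, changed direction under any alternative run. The median member difference of GNF-2-resistant libraries against vehicle was 0.55 with clone as a covariate, against 0.77. In clones against resistant populations, members called by limma numbered 5 after rescaling by median ratios (all higher: BOP1, NCL, NHP2, NOLC1 and RRP9), 1 with variance without trend, 0 with resistance group as a covariate, 0 with population of origin as a block, and 0 to 3 when a library was left out, against 3. Quantile normalization also gave 3, but these were BOP1, RRP9 and UTP20. The 3 called without the GNF-2 population were BOP1, NOLC1 and WDR43, and no fit with a library left out kept all 3 reported calls. All genes called there numbered 883 in the reported fit, 238 with resistance group as a covariate and 13 with population of origin as a block. Of all genes called, 22.5% were higher, 39.9% after rescaling and 47% after quantile normalization.

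With a fold of at least 2, members above vehicle numbered 13 in the GNF-2 population (4.46% of all genes), 17 in Clone 1 (5.71%), 14 in Clone 2 (7.51%), 19 in Clone 4 (9.66%), 14 in Clone 3 (4.48%), 2 under nilotinib (2.65%) and 0 under imatinib (0.979%). Against the population treated with the same drug, members past 2-fold in either direction numbered 0 in Clones 1, 2 and 4. The shares of all genes there were 9.77%, 11.3% and 11.3%. Clone 3 had 7 such members, all higher, against 3.79% of all genes higher. After quantile normalization the imatinib population had 0 members past 1.5-fold from vehicle (7.42% of all genes in either direction). Against the GNF-2 population, quantile normalization gave 5 in Clone 1 (20.6%) and 7 in Clone 4 (24.8%), and rescaling gave 6 in Clone 1 (22.1%) and 1 in Clone 2 (22.3%). With no floor of 5 FPKM, an alternative chosen after seeing the data, the imatinib population had 2, and each other count moved by at most 1. The cause was not tested.

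The labels give no replicate number shared between groups, and the population of origin was the only block tried. Depth was estimated, not known, and 2 of the 4 groups are single libraries. Restricting the fit to genes above 0 in all 8 libraries, also chosen after seeing the data, left the 3 calls in clones.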
